A study of Mus musculus with 14 samples.

Results

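The 6 arrays labelled hippocampus are described here, out of 14 arrays of mouse brain. They were chosen by their titles, as 3 control and 3 conditional knockout (cKO) hippocampi at postnatal day 7. All 14 arrays came from mice labelled male on the C57BL/6 strain background. Every mouse carried CTCF fl/fl, so the floxed alleles were shared by controls and cKO. Control mice were Nex-Cre +/+ and cKO mice were Nex-Cre +/Cre. The other 8 arrays were cortex of the same age, 4 control and 4 cKO. Each array is labelled a biological replicate. In the main fits the p-values rest on a spread pooled over the cortex and hippocampus arrays, not on hippocampus alone.

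CTCF, a DNA-binding protein with zinc fingers, works with cohesin. Together they anchor chromatin loops that bring enhancers and promoters close. The clustered protocadherins, surface adhesion proteins chosen in different combinations by each neuron, are the best known neuronal genes that depend on it. Nex-Cre is Cre placed in the Neurod6 locus, which is active in postmitotic excitatory neurons of cortex and hippocampus. Interneurons, glia and vessels lie outside that lineage and keep the floxed gene, and a whole-tissue array reads all of these cells together. In such bulk RNA, fewer cells of a type and less RNA per cell cannot be told apart. The dentate gyrus, with its granule cells, and the fields CA1 to CA3, with their pyramidal cells, make up the excitatory neurons of the hippocampus.

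The deposited values are log2 expression per probe set, so a difference of 1 is a doubling. Array medians lay between 6.57 and 6.77 over 23332 probe sets. The number of arrays, not a read depth, limits the precision.

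The hippocampal label was checked first, against markers of both regions. Prox1, the dentate granule cell transcription factor, stood at 8.91 in control 1, 9.28 in control 3 and 9.12 in cKO 2. It stood at 6.65 in control 2, 6.72 in cKO 1 and 6.91 in cKO 3, which is the level of the cortex arrays. The transcription factor Zbtb20, present in pyramidal and granule neurons of the hippocampus, split the arrays in the same way. It read 10.43, 10.59 and 10.55 in control 1, control 3 and cKO 2, and 8.37, 8.49 and 8.67 in control 2, cKO 1 and cKO 3. Rorb, a layer 4 transcription factor of cortex, ran the other way. It was at 7.14, 7.58 and 7.40 in the first trio and at 9.33, 9.45 and 9.39 in the second.

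Fibcd1, found in CA1, and Grik4, a kainate receptor subunit found in CA3, were also higher on each of the first 3 arrays than on each of the other 3. Across all probe sets, control 2, cKO 1 and cKO 3 each matched 1 cortex array of the same genotype, with a Spearman correlation of at least 0.997. The highest correlation of any other pair of arrays was 0.990. The SD of the difference from the matching array was at most 0.213, against at least 0.363 in other pairs. These 3 arrays are called near-copies below, and control 1, control 3 and cKO 2 are called the unmatched arrays. The data go against the hippocampal label of the near-copies. Statements therefore rest on the unmatched arrays, 1 cKO against 2 controls. Values as labelled, 3 against 3, are given for Ctcf, the groups of genes and those genes ranked by p whose labelled arrays overlap.

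**Figure D1:**
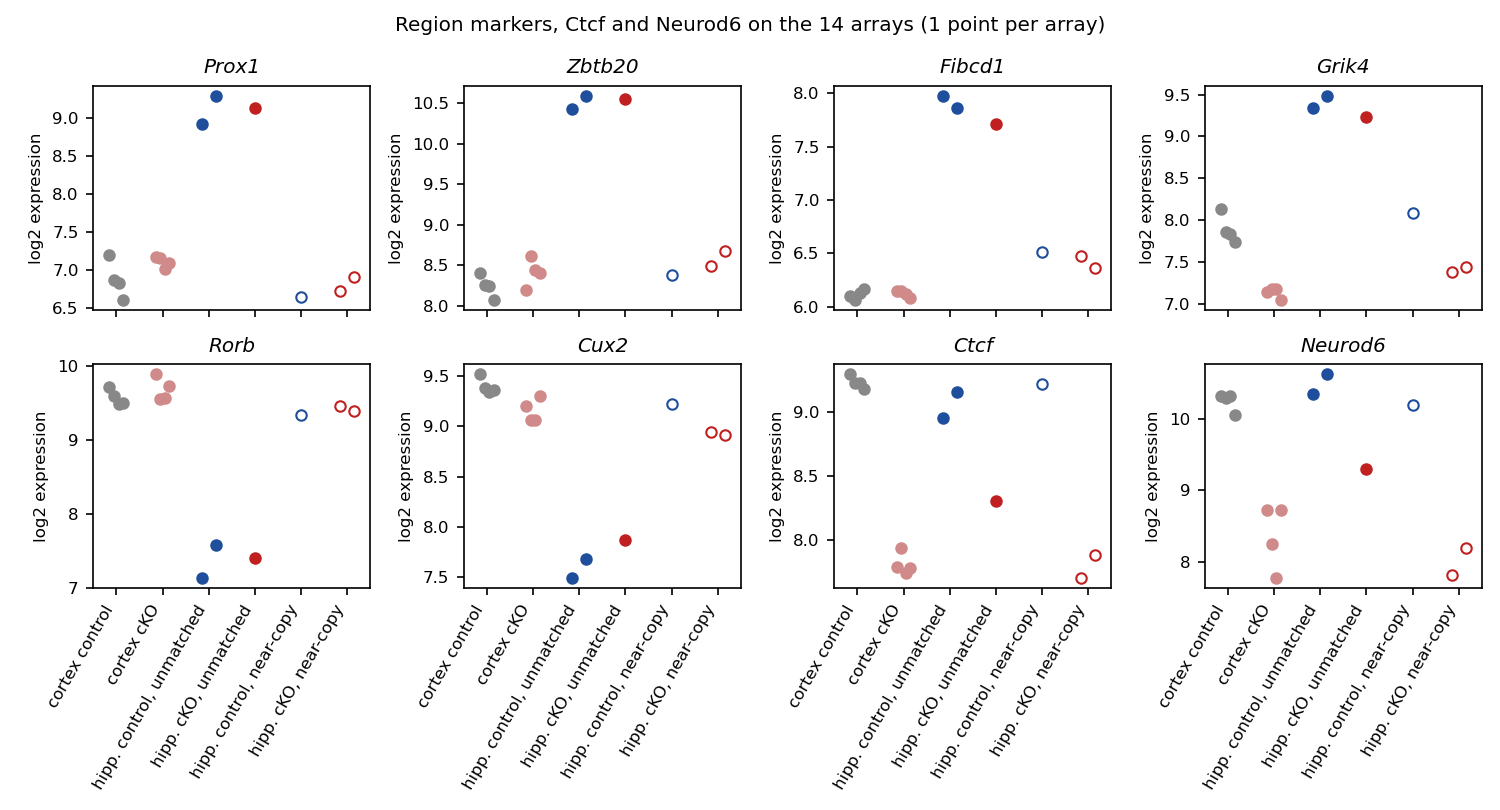
Log2 expression (y axis) of 4 hippocampal markers, 2 cortical markers, Ctcf and Neurod6, 1 point per array and 1 column per group. Filled blue and red points are the unmatched hippocampus arrays and open points the near-copies, which sit with the cortex arrays for Prox1 (6.65 to 6.91, against 8.91 to 9.28) and Rorb.

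The unmatched arrays also differed among themselves in ways that are not the genotype. Eif2s3y, a Y-linked gene, read 3.79 in control 1 and 3.37 in cKO 2 but 8.81 in control 3, although all are labelled male. The mean of the Y-linked genes was also low in cortex cKO 1 and cKO 4 (3.61 and 3.65) but not in the 4 cortex controls (8.07 to 8.34). The cortical comparison and the shared spread include those arrays. Ttr, the choroid plexus thyroxine carrier, read 8.28 in control 1, 12.27 in control 3 and 11.60 in cKO 2. It was between 5.46 and 6.19 on the near-copies. The SD of the difference between control 1 and control 3 over all probe sets was 0.457, and cKO 2 differed from them by 0.479 and 0.412. The distance of cKO 2 from the controls was thus about that between the controls.

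Ctcf itself, the targeted gene, was lower on cKO 2 than on both controls. It read 8.95 in control 1 and 9.16 in control 3 and 8.31 in cKO 2. The difference was -0.75 (SE 0.13), which did not pass in limma's moderated test (adjusted p = 0.172). Of the near-copies, control 2 read 9.22, and cKO 1 and cKO 3 read 7.70 and 7.89. As labelled, Ctcf fell by 1.14 on the log2 scale (SE 0.13, limma adjusted p = 0.00476), and the 3 cKO arrays did not overlap the 3 controls. The two-sided exact permutation test of 3 against 3 gave p = 0.1, the smallest it allows, and 1 against 2 gave 0.333, also the smallest. In cortex the change was -1.42, and the difference between the regions, 0.67, did not pass (limma adjusted p = 0.516).

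Neurod6, the gene whose locus carries the Cre, read 10.35 in control 1, 10.62 in control 3 and 9.29 in cKO 2. The change of -1.19 (SE 0.36) did not pass in limma (adjusted p = 0.516). As labelled it fell by 1.95 (SE 0.33, limma adjusted p = 0.0336). The Cre sits in this gene on 1 allele of every cKO mouse, so its level is no independent readout of Ctcf.

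Over all probe sets, limma called 1 change on the unmatched arrays, which is 0.00429% of 23332. A call needed a fold above 1.2 together with an adjusted p under 0.05. It called 0 higher, while 862 (3.69%) were higher and 586 (2.51%) lower at an unadjusted p under 0.05, together 6.21%. The single cKO array was assumed to vary like the other groups, so the spread behind these p-values comes mostly from the 8 cortex arrays. The 1 called probe set, 4332799, has no gene symbol here. It read 5.12 and 5.51 in the controls and 3.001 in cKO 2, which passed in limma (adjusted p = 0.0371). The cKO value lies under 3.55. That is the median over 719 probe sets of olfactory receptor genes, taken as a guide to background since brain tissue has little of them. By size alone, 689 probe sets (2.95%) were at least 1.5-fold above both controls on cKO 2, and 463 (1.98%) at least 1.5-fold below both.

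The 12 genes ranked highest by p in each direction are described next. None of these 24 passed in limma (adjusted p 0.0762 to 0.197), so their values are given without a call. All 24 lay at least 1.5-fold beyond both controls on cKO 2, where 2.95% of all probe sets were above and 1.98% below. They were picked with cKO 2 beyond both controls, so nothing is read from that count. Their rank rests on the shared spread. Only the higher group had to lie above 5.71, the 95th percentile of the olfactory receptor probe sets. The controls of Gpr182 lie under it, as does cKO 2 for Il1rapl2 and Slc9a4. On that side these genes are within the range of background, so the sizes of their changes are uncertain.

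**Figure D2:**
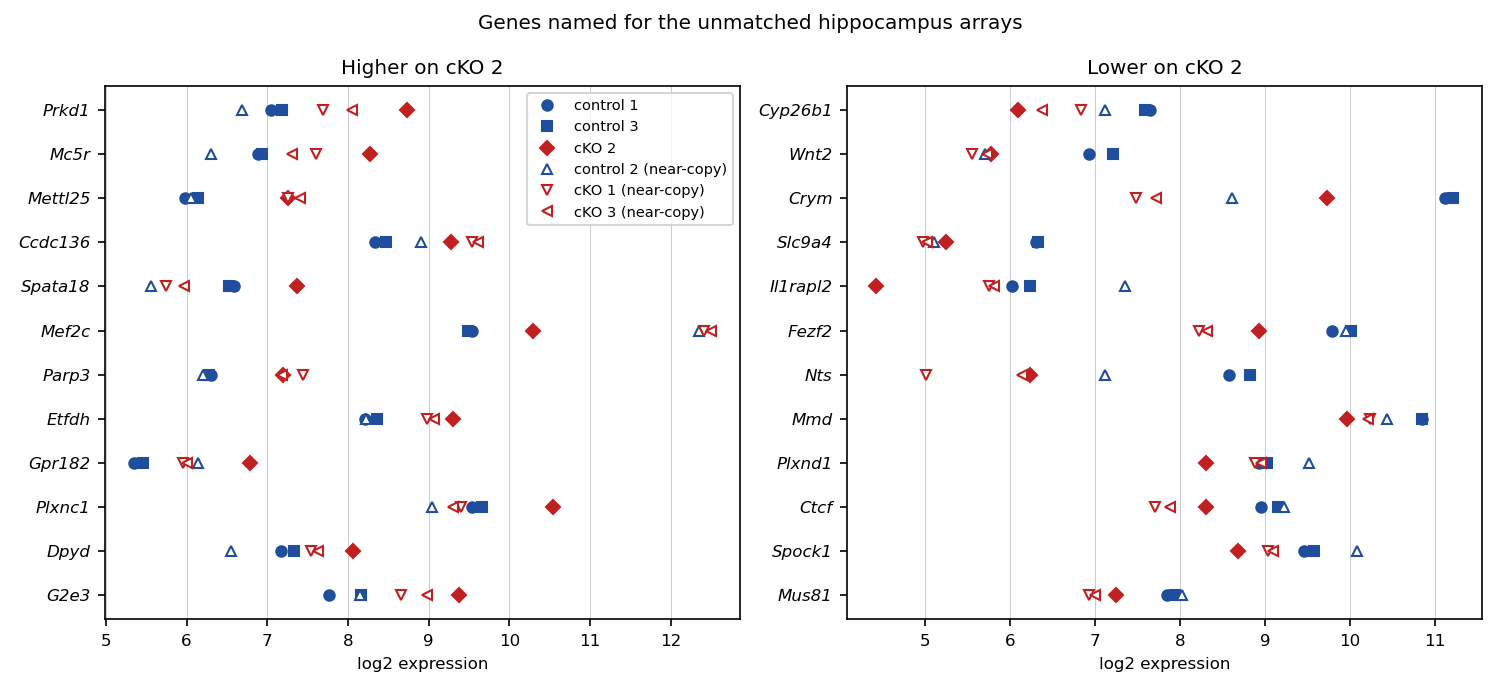
Log2 expression (x axis) of the 12 higher (left) and 12 lower (right) genes, with 1 row per gene and 1 symbol per array labelled hippocampus. By the choice of genes, the red diamond of cKO 2 lies beyond the blue circle and square of controls 1 and 3 in each row. For Prkd1 it is at 8.73 against 7.05 and 7.19. Open symbols are the near-copies.

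Among signalling genes, Prkd1, a kinase downstream of diacylglycerol, read 7.05 in control 1, 7.19 in control 3 and 8.73 in cKO 2. The difference was 1.61 (SE 0.19, limma adjusted p = 0.0762). Its near-copies read 6.69 in control 2 and 7.69 and 8.06 in cKO 1 and cKO 3, so the labelled groups did not overlap. Mc5r, a melanocortin receptor, read 6.89 and 6.93 in the controls and 8.27 in cKO 2. Gpr182, a receptor of the G protein-coupled class, read 5.35 and 5.46 in the controls and 6.78 in cKO 2. Plxnc1, a receptor for a membrane semaphorin, read 9.54 and 9.67 in the controls and 10.54 in cKO 2. Each of these stood above both controls.

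Transcription factors stood on both sides of the controls. Mef2c, which acts in neuronal maturation, read 9.54 and 9.49 in the controls and 10.29 in cKO 2 (0.78, SE 0.11, limma adjusted p = 0.0959). Fezf2, a transcription factor of subcortically projecting neurons that is also present in hippocampus, read 9.79 and 10.01 in the controls and 8.93 in cKO 2 (-0.97, SE 0.14, limma adjusted p = 0.0954). The near-copies hold Mef2c at 12.35 to 12.50, the cortical level, so its as-labelled difference of 1.28 mixes region with genotype.

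Genes of metabolism, repair and protein turnover were among the higher ones. Etfdh, a mitochondrial electron carrier, read 8.21 and 8.36 in the controls and 9.31 in cKO 2. Dpyd, which degrades pyrimidines, read 7.17 and 7.33 and then 8.06. Parp3, an ADP-ribosyltransferase of DNA repair, read 6.30 and 6.28 and then 7.19. Spata18, known for mitochondrial quality control, read 6.59 and 6.53 and then 7.37. Mettl25 read 5.98 and 6.14 and then 7.26, and Ccdc136 read 8.34 and 8.47 and then 9.28.

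The lower genes included secreted factors and their regulators. Nts, the precursor of neurotensin, showed the largest difference of the 24, at 8.57 and 8.82 in the controls and 6.24 in cKO 2 (-2.46, SE 0.39, limma adjusted p = 0.127). Cyp26b1, which breaks down retinoic acid, read 7.64 and 7.58 in the controls and 6.09 in cKO 2 (-1.52, SE 0.17, limma adjusted p = 0.0762). Wnt2, a secreted Wnt ligand, read 6.93 and 7.21 in the controls and 5.78 in cKO 2. Spock1, a proteoglycan of the extracellular matrix, read 9.45 and 9.58 and then 8.68.

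Membrane and intracellular proteins made up the rest of the lower genes. Il1rapl2, of the interleukin-1 receptor accessory family, read 6.02 and 6.23 in the controls and 4.42 in cKO 2. Crym, a thyroid hormone binding protein, read 11.12 and 11.21 and then 9.73. Slc9a4, a sodium and proton exchanger, read 6.30 and 6.33 and then 5.25. Plxnd1, a semaphorin receptor, read 8.93 and 9.03 and then 8.31. Mmd was at 10.84 in both controls and at 9.97 in cKO 2, and Mus81, a nuclease of DNA repair, was at 7.84 and 7.94 and then 7.24.

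Of the 12 higher genes, 8 were also called higher in cortex, and of the 12 lower genes, 9 were called lower there, where 0.591% and 1.36% of all probe sets were called. Those not called in cortex were Spata18, Mef2c, Gpr182 and Plxnc1 among the higher and Wnt2, Slc9a4 and Mmd among the lower. As labelled, every cKO array was above every control for 8 of the 12 higher genes (7.11% of all probe sets) and below for 8 of the 12 lower genes (4.25%). The choice of genes already fixed the order of 3 of these 6 arrays, so nothing is read from those counts. The labelled groups overlapped for Spata18 (0.13, SE 0.36), Mef2c, Gpr182 (0.60, SE 0.24) and Plxnc1 (0.33, SE 0.27). They also overlapped for Wnt2 (-0.93, SE 0.28), Crym (-2.00, SE 0.65), Slc9a4 (-0.83, SE 0.25) and Plxnd1 (-0.45, SE 0.17). The ranks in hippocampus and the cortical calls use 1 shared estimate of the spread.

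Prkd1, then G2e3, a ubiquitin ligase, and then Coch, an extracellular matrix protein known from the inner ear, follow each other on chromosome 12 in the reference order of protein-coding genes measured with 1 symbol. A gene without such a probe set may lie between them. G2e3 read 7.77 and 8.16 in the controls and 9.37 in cKO 2 (1.41, SE 0.23, limma adjusted p = 0.142). Coch read 7.31 and 7.67 and then 8.54 (1.06, SE 0.22, limma adjusted p = 0.254). These 3 neighbours were each at least 1.5-fold above both controls, where 2.95% of all probe sets were. Prkd1 and G2e3 were already among the 12 higher genes, picked for standing above both controls, so only Coch was added here. The next measured genes on either side were not, with Stxbp6 at -0.19 (SE 0.30) and Strn3 at 0.26 (SE 0.16). No other of the 24 genes had such a neighbour beyond 1.5-fold in its own direction. In cortex the 3 genes changed by 1.21, 0.81 and 1.03, each called.

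The promoters of these 3 genes are shown because the genes were higher together. They come from RefSeq on GRCm38.p6, as a window around the start of each gene, with the word CCCTC (or GAGGG on the other strand), the core from which CTCF takes its name, in capitals. Prkd1 lies at chr12:50649200-50649499 on the minus strand, G2e3 at chr12:51347980-51348279 on the plus strand and Coch at chr12:51593091-51593390 on the plus strand.
Prkd1: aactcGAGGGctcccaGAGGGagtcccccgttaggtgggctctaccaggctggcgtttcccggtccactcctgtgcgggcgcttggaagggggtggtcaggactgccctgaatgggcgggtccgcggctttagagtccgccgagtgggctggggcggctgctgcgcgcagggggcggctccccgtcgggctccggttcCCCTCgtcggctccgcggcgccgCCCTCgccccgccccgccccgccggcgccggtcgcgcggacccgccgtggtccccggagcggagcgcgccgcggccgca
G2e3: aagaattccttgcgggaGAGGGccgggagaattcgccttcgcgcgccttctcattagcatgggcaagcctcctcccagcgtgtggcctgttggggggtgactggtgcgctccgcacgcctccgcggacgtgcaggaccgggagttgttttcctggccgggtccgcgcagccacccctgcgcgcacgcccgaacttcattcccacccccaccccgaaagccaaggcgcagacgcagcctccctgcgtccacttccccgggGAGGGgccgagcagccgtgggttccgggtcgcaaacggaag
Coch: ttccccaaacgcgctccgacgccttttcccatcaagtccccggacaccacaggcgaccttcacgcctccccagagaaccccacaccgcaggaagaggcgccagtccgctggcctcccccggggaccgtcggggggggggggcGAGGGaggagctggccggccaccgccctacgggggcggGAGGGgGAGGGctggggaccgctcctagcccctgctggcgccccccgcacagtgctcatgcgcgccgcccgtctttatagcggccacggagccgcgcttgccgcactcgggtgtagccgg
Prkd1 holds 4 such words, G2e3 2 and Coch 3. The word is common, being present in 66.0% of 32851 promoter windows, with at least 3 copies in 17.7% and at least 4 in 8.23%. A match is a description of the letters, not a binding site. A longer word for the CTCF core was also searched for, and it was in none of these 3 windows. That word is rare, being present in 2.43% of the 32851 windows, so its absence here says little.

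The protocadherin beta isoforms were lower as a group on the unmatched arrays. Of 22 measured isoforms, 21 were below both controls on cKO 2, where 25.8% of all probe sets were, and the median change was -0.60 against 0.06 for all probe sets. None passed in limma on the unmatched arrays, and 14 were lower at an unadjusted p under 0.05, where 2.51% of all probe sets were. As labelled, 10 isoforms were called lower, where 0.193% of all probe sets were. There 21 of 22 had a negative change, against 45.6% of all probe sets, and the median was -0.95. In cortex 20 were called lower and the median was -1.32. The near-copies among the labelled arrays match cortex arrays, so the calls as labelled are not separate from those in cortex.

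Pcdhb22 had the largest difference, at 7.54 and 7.70 in the controls and 6.49 in cKO 2 (-1.13, SE 0.29, limma adjusted p = 0.37). Pcdhb21 read 6.48 and 6.65 and then 5.61 (-0.96, SE 0.24). Pcdhb20 read 7.90 and 7.92 and then 7.14 (-0.77, SE 0.16, limma adjusted p = 0.247). The exception was Pcdhb1, at 3.73 and 3.95 in the controls and 3.89 in cKO 2, close to that guide to background. The sign of its change turned under other normalizations. In all 21 others the hippocampal change was smaller than the cortical one, and none of these differences passed (lowest limma adjusted p = 0.405).

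**Figure D3:**
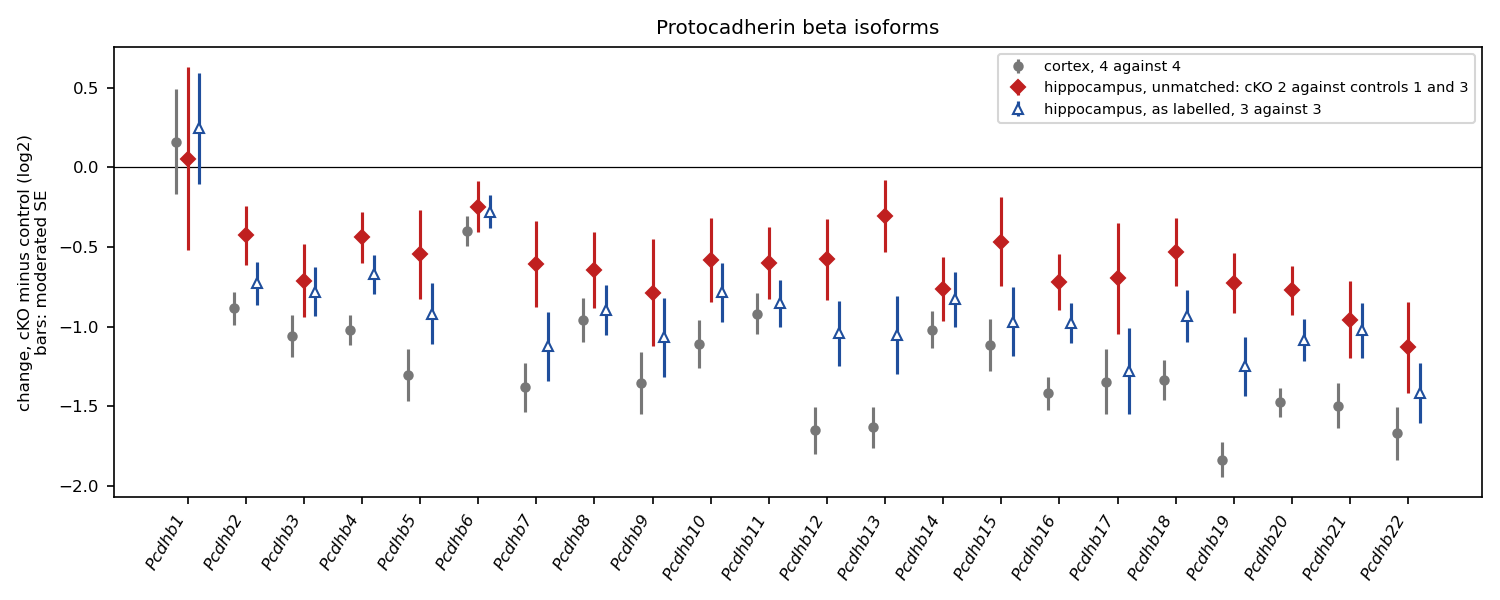
Change on the log2 scale (y axis, cKO minus control, bars are the moderated SE) of 22 protocadherin beta isoforms (x axis) in cortex, on the unmatched hippocampus arrays and on the hippocampus arrays as labelled. The red diamonds lie below 0 for 21 of 22 isoforms and nearer to 0 than the grey cortex points, with medians of -0.60 and -1.32.

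Lists of genes were then read by their counts and medians beside those of all probe sets, where 39.9% of changes were negative. Members and lists were chosen with earlier results of these data known, so the counts here and below describe the lists and test nothing. Of all 23332 probe sets, 15211 had a mean above 5.71, while in most lists nearly all members did. The shares of all probe sets are therefore not those of genes of like level. No calls are read for the 35 lists, since the probe set called on the unmatched arrays has no symbol and could be in none. Of CA1 pyramidal genes, 7 of 8 were below both controls, where 25.8% of all probe sets were, with a median of -0.34. Ccn3, a secreted matricellular protein, read 10.10 and 10.03 in the controls and 9.20 in cKO 2 (-0.87, SE 0.31). Wfs1, a CA1 marker of the endoplasmic reticulum, read 8.09 and 7.92 and then 7.49 (-0.52, SE 0.39). Dentate granule genes had a median of -0.09 with 5 of 12 positive, and CA2 and CA3 genes one of -0.18 with 5 of 13 positive. Without control 1 the dentate median was -0.17, and without control 3 it was -0.03. With either control left out, the median of CA1 genes was -0.32 or -0.30 and that of CA2 and CA3 genes -0.24 or -0.02.

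Genes that mark deep cortical layers, several of which hippocampal neurons also use, had a median of -0.20, with 12 of 20 below both controls, against 25.8% of all probe sets. Besides Crym and Fezf2, Bcl11b, a zinc finger transcription factor, read 8.82 and 8.90 in the controls and 8.28 in cKO 2 (-0.57, SE 0.12, limma adjusted p = 0.277). Nr4a2, a nuclear receptor, read 9.58 and 9.67 and then 8.63 (-0.99, SE 0.35, limma adjusted p = 0.655). Both stood below each control. Upper layer genes had a median of 0.04, which was -0.04 after quantile normalization.

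All 9 Cajal-Retzius and hilar cell genes had positive changes, with a median of 0.19 and 7 above both controls, where 41.6% of all probe sets were. Cxcr4, a chemokine receptor, read 8.41 and 8.59 and then 9.08 (0.59, SE 0.23). Reln, the secreted glycoprotein of Cajal-Retzius cells, read 10.58 and 10.73 and then 10.85 (0.20, SE 0.12). As labelled the median was -0.13, opposite in sign.

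Activity-regulated genes had a median of -0.17, with 17 of 28 below both controls, against 25.8% of all probe sets. Rasgrp1, an exchange factor for Ras, read 10.52 and 10.63 in the controls and 8.48 in cKO 2 (-2.09, SE 0.42, limma adjusted p = 0.247). As labelled it fell by 2.01 (limma adjusted p = 0.047). Dusp6, a phosphatase of the ERK pathway, read 9.55 and 9.81 and then 8.98 (-0.70, SE 0.16). Egr1, an immediate early transcription factor, read 7.31 and 7.32 and then 6.67 (-0.65, SE 0.27). Neuropeptide genes had a median of -0.24, with 15 of 21 below both controls, against 25.8% of all probe sets. The median was -0.13 without control 3. Beside Nts, Cort read 8.38 and 8.41 and then 7.86 (-0.53, SE 0.16).

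Genes of CTCF partners were mostly positive, by an amount that hung on the control. Of 19 Ctcf and cohesin genes, 17 had positive changes, with a median of 0.18, and Ctcf was among the other 2. The median was 0.07 without control 1 and 0.32 without control 3, and in cortex it was -0.0003, with 9 of 19 positive. Rad21, a subunit of the cohesin ring, read 9.48 and 9.61 in the controls and 9.96 in cKO 2 (0.42, SE 0.12, limma adjusted p = 0.462). Stag1 read 8.06 and 8.35 and then 8.77 (0.56, SE 0.17).

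Markers of cells outside the deleted lineage were set beside these values. Of all 23332 probe sets, 14022 had a positive change on the unmatched arrays. Microglial genes were positive in 25 of 27, with a median of 0.20, and their mean level was 6.64 in control 1, 6.69 in control 3 and 6.92 in cKO 2. Fcgr3, an Fc receptor, read 6.43 and 6.80 and then 7.59 (0.98, SE 0.33, limma adjusted p = 0.597). Astrocyte genes were positive in 13 of 15, with mean levels of 9.68, 9.71 and 9.83. Interneuron genes stood at mean levels of 8.19, 8.21 and 8.22. Choroid plexus and ependyma genes stood at 5.62, 6.36 and 6.25, and their median change of 0.26 was -0.08 without control 1. Meningeal and fibroblast genes, at mean levels of 7.53, 7.59 and 7.61, were positive in 11 of 15, with a median of 0.18. Of the 15, 10 were above both controls, where 41.6% of all probe sets were. Against that direction Dcn, a matrix proteoglycan, read 9.71 and 9.72 in the controls and 8.69 in cKO 2 (-1.03, SE 0.25, limma adjusted p = 0.374). As labelled the Dcn arrays overlapped, with a difference of -0.55 (SE 0.27). The part of cell makeup in the changes was not tested. As labelled, the medians were -0.28 for dentate, -0.33 for CA1, -0.27 for CA2 and CA3, -0.33 for deep layer, -0.09 for activity-regulated and -0.17 for neuropeptide genes. They were 0.13 for Ctcf and cohesin, 0.43 for microglial, 0.13 for astrocyte and 0.08 for meningeal genes, against 0.02 for all probe sets. Upper layer and interneuron genes had labelled medians of 0.23 and 0.03. That of choroid plexus and ependyma genes was -0.02, opposite in sign to the unmatched 0.26. The near-copies carry cortical levels into these values.

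**Figure D4:**
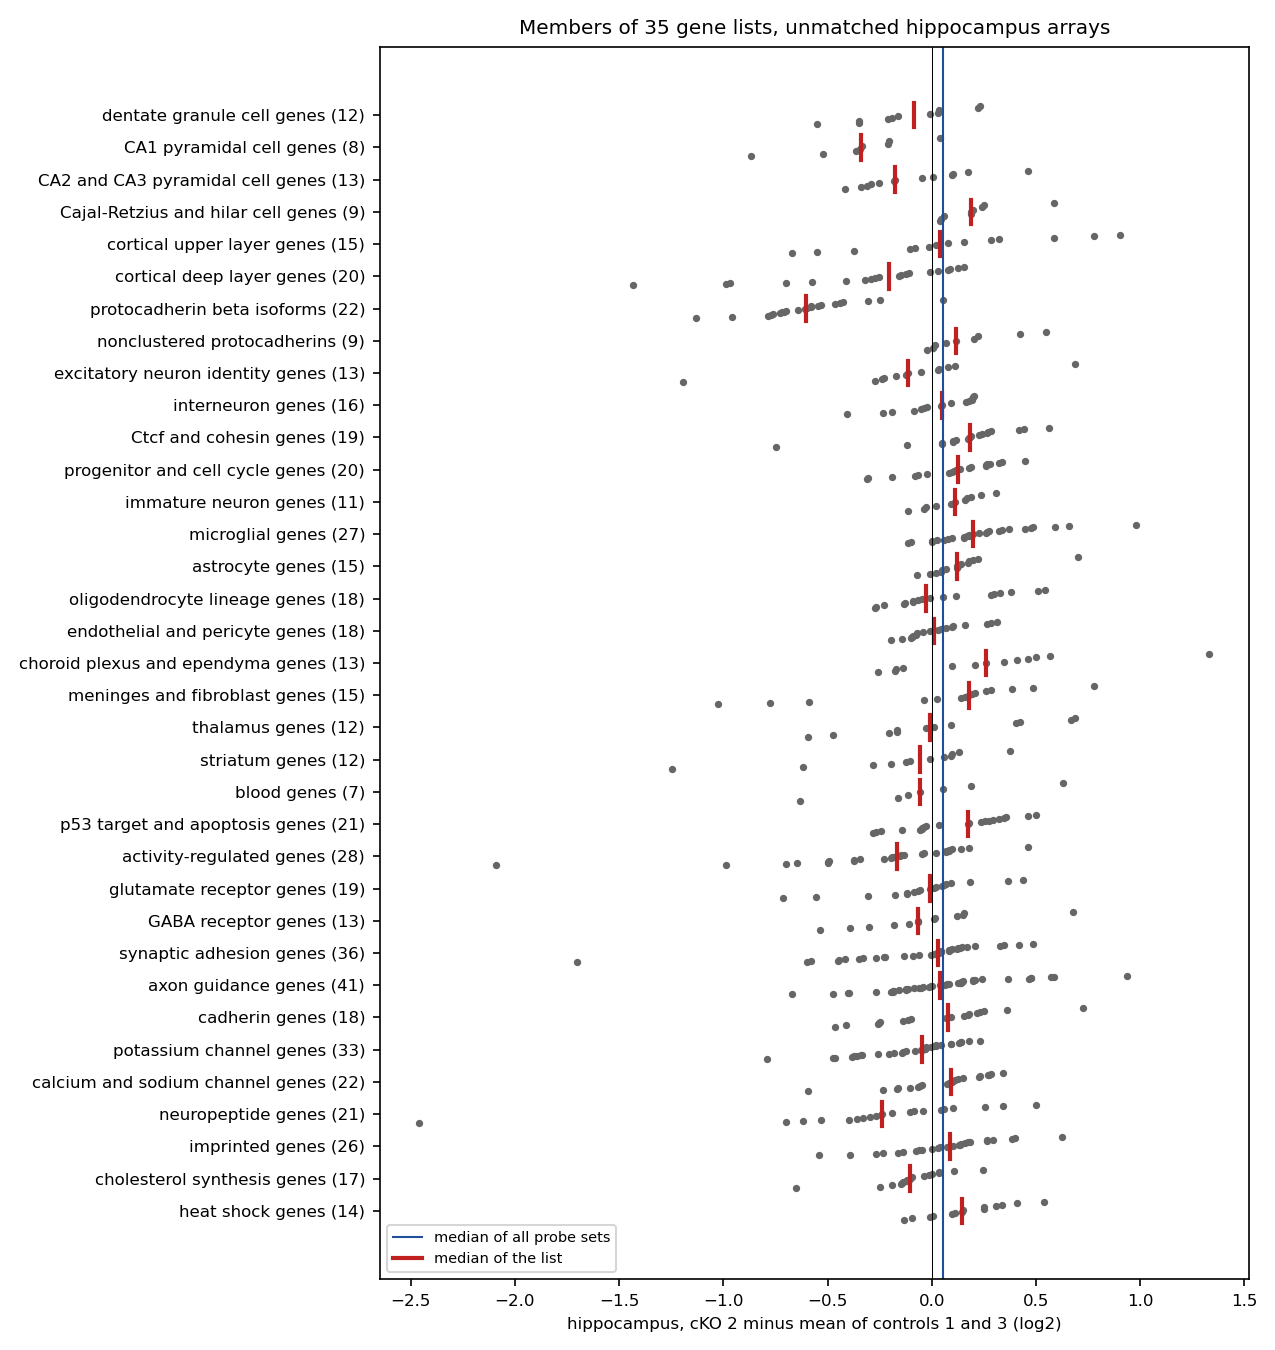
Change on the log2 scale (x axis, cKO 2 minus the mean of controls 1 and 3) of the members of 35 gene lists, 1 grey point per gene and a red bar at the list's median, with the number of measured members in brackets. The blue line is the median of all probe sets, 0.06, and the protocadherin beta isoforms sit farthest to its left, at -0.60.

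The genes called in cortex were compared with the hippocampus arrays that share no array with that comparison. Of 455 probe sets called in cortex, 400 (87.9%) had a change in the same direction on the unmatched hippocampus arrays, against 53.8% of all probe sets. At least 1.5-fold beyond both controls in that direction were 78 (17.1%), against 2.82% of all probe sets. By size, the hippocampal change was the smaller in 399 of the 455 (87.7%), against 38.7% of all probe sets. These probe sets were chosen for their cortical change, which favours a larger value in cortex, so nothing is read from that count. The highest cortical rise, Mnd1, a meiotic recombination gene, read 4.70 and 5.28 in the hippocampal controls and 7.42 in cKO 2. The change of 2.43 (SE 0.45) did not pass. Its controls lie under 5.71, within the range of background, so the size of the change is uncertain.

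**Figure D5:**
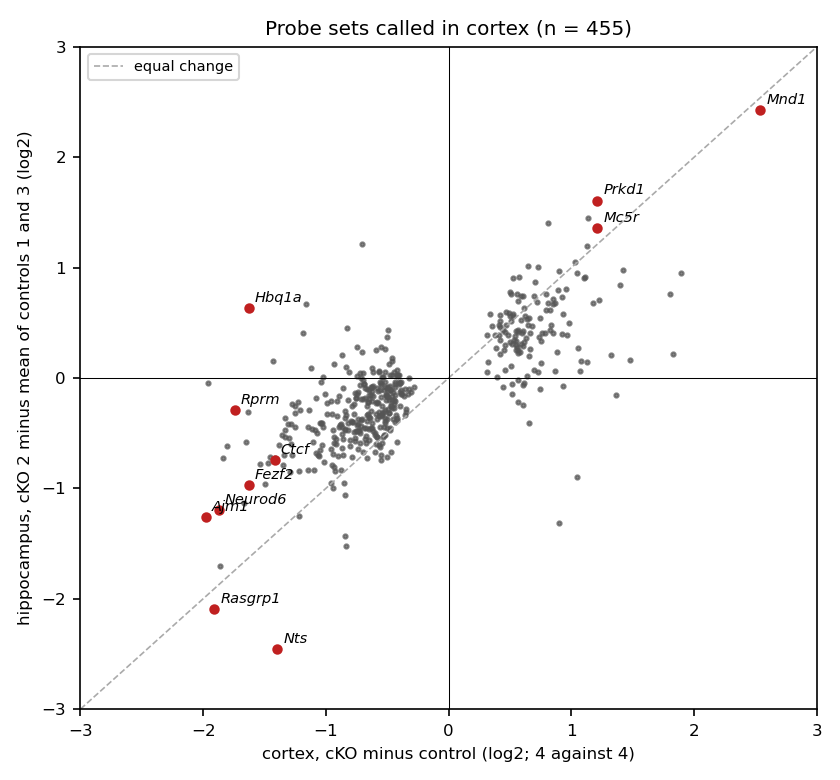
Change in hippocampus (y axis, cKO 2 minus the mean of controls 1 and 3, log2) against change in cortex (x axis, 4 against 4, log2) for the 455 probe sets called in cortex, 1 point each. Most points (400 of 455) share the sign of the cortical change, and 399 are smaller in size in hippocampus, in a set chosen for its change in cortex. The red points are genes named in the text or by rank.

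As labelled, 78 probe sets were called in hippocampus (0.334%), 33 higher and 45 lower. These values hold 1 near-copy among the controls and 2 among the cKO, counted as samples apart from the cortex arrays they match. Mettl25 rose by 1.25 (SE 0.10, limma adjusted p = 0.000657), and Zdhhc1, a palmitoyltransferase family member, by 0.87 (SE 0.09, limma adjusted p = 0.00297). Ajm1 fell 2.83-fold (limma adjusted p = 0.00452), with controls at 8.98, 9.02 and 8.98 and cKO at 7.44, 7.72 and 7.32. Def8 fell by 1.04 (SE 0.13, limma adjusted p = 0.00678). These genes were picked with every cKO array beyond every control, so nothing is read from the place of cKO 2 beside cKO 1 and cKO 3.

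The difference between the regions was tested directly on the 11 arrays without the near-copies, and 2 probe sets passed (0.00857%), while 1228 (5.26%) had an unadjusted p under 0.05. Rprm, a cell cycle arrest gene that is also a marker of deep cortical layers, fell by 1.74 in cortex. In hippocampus it read 8.57 and 8.53 in the controls and 8.26 in cKO 2 (-0.29, SE 0.11, limma adjusted p = 0.691). The difference, 1.45, passed in limma (adjusted p = 0.0228). With 1 of 10 arrays left out in turn, Rprm passed in 1 case and missed in 9 (limma adjusted p 0.0432 to 0.12). The other, probe set 4332799, missed in 9 of 10 as well. Its controls lie under 5.71, the 95th percentile of the olfactory receptor probe sets, and cKO 2 under their median. It is therefore a difference within the range of background, and nothing is read from its size. Tshr, the thyrotropin receptor, came next at 1.59 and did not pass (limma adjusted p = 0.0563).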

How the data were processed

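Per the labels' protocols, RNA was extracted with TRIzol and RNeasy columns and hybridised to Affymetrix whole transcript arrays. The authors deposited log2 expression for each probe set. Expression Console, RMA, Partek 6.4 and mm9 are named in the submitters' processing notes. The log2 values were used as deposited, for 23332 probe sets, of which 14996 have 1 symbol. A model with 1 mean per group was fitted in limma (3.58.1, R 4.3.3) by lmFit and eBayes. P-values were adjusted by Benjamini-Hochberg across the whole table. The first fit used 11 arrays without the near-copies, the second 14 as labelled. Calls needed an adjusted p under 0.05 and a fold above 1.2. Named genes were the 12 smallest p each way on the unmatched arrays (10 as labelled, 5 for the difference between regions). In the higher group only, their mean had to lie above the 95th percentile of 719 olfactory receptor probe sets (5.71). They changed more than 1.2-fold. On the unmatched arrays cKO 2 had to lie beyond both controls, and as labelled every cKO array beyond every control. Ctcf, Neurod6, region markers and protocadherins were always named. Lists give up to 6 members each. Coch and its neighbours were named after their values were seen. Members and lists were chosen with earlier results of these data known. Tested on simulated data, the unmatched fit recovered 0% of 1.3-fold, 16% of 1.5-fold, 46% of 2-fold and 74% of 3-fold changes. The simulated noise was the spread within the cortex groups, and changes were planted only in probe sets of higher mean. Recovery on the hippocampus arrays themselves is therefore not shown.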

Additional observations from a re-analysis of the deposited data

Results flagged for a closer look

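Tests of the difference between regions singled out 2 probe sets. Probe set 4332799 had a hippocampal change minus cortical change of -2.61 on the log2 scale, and Rprm one of 1.453. The first is within the range of background on every hippocampus array used. Of 18 other settings it missed the threshold in 11, and of 20 Rprm missed it in 10. Among the cortex groups of 4, an outlier rule marked single arrays for 3 genes named for hippocampus. It sets the gap to the nearest array against the range of the group, so it also marks small gaps in tight groups. Neurod6 was 10.05 in cortex control 4, Spata18 5.587 in cortex control 3 and Etfdh 8.923 in cortex cKO 1. The gaps were small for Spata18, with the other controls at 5.681 to 5.693, and for Etfdh, with the other cKO arrays at 9.031 to 9.048. Chance marks about 1 in 20 groups in this way. No explanation was tested.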

How the results depend on the processing

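On the unmatched arrays the count of 1 called probe set became 30 after quantile normalization (10 higher, 20 lower), 9 with arrays centred on their medians, 15 with a filter on low values, 8 with a trended robust prior and 17 with 1 probe set per gene. It became 78 with all 14 arrays as labelled, and 0 without moderation, with the near-copies averaged into cortex, with the 3 arrays alone, with Y-linked signal as a covariate, and with the 6 arrays labelled hippocampus regrouped (chosen after seeing the data). Leaving out 1 array gave 0 to 4, with 4 without cortex cKO 3. As labelled, 78 became 172 after quantile normalization, 142 with centring, 167 with the filter, 120 with the trended prior, 351 with array weights, 157 with 1 probe set per gene and 0 with the 6 arrays alone. Leaving out 1 array gave 14 (without cKO 1) to 274 (without cKO 2), with 33, 119 and 29 without controls 1, 2 and 3 and 19 without cKO 3. The difference between regions, 2, became 4 after quantile normalization or centring, 1 without moderation and 0 with the regrouped arrays, and 0 to 2 without 1 array, 0 in 9 of 10 cases and 2 without cortex control 1. Ctcf passed on the unmatched arrays after quantile normalization (-0.87, adjusted p = 0.0336) and as labelled (-1.14, adjusted p = 0.00476), and did not pass as labelled with the 6 arrays alone (-1.14, adjusted p = 0.284). Probe sets 1.5-fold higher, 689, became 181 with the filter, 149 with 1 probe set per gene and 1298 to 2247 without 1 control. Those 1.5-fold lower, 463, became 129, 162 and 1193 to 1202. The protocadherin median of -0.60 became -0.95 as labelled. Signs turned for Pcdhb1 (-0.0186 quantile, -0.0101 centred, -0.0577 without control 1 and 0.167 without control 3), Prox1 (-0.0506 quantile, -0.0353 centred, -0.156 without control 1 and 0.215 without control 3, -0.692 as labelled) and Zbtb20 (-0.0259 centred, -0.0379 without control 1 and 0.115 without control 3, -0.562 as labelled). List medians were also taken with other scalings and without each control, chosen after seeing the data. The cause of these shifts was not tested.

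No paired analysis was possible for the unmatched arrays because control and cKO share no replicate number. As labelled, a replicate block over 14 arrays left 10 calls and over the 6 arrays labelled hippocampus 0, with Ctcf at -1.14 (adjusted p = 0.809). Deviations of same-numbered arrays correlated at 0.0982, -0.379 and -0.0892. Each such pair joins a near-copy to an unmatched array, so these correlations cannot decide whether the numbers mark pairs. The labels do not say that a number marks a shared animal, litter or day, so the numbers were not taken as pairs.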
